A study of Mus musculus with 16 samples.

Results

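A set of 8 genes that mark the resident macrophages of bone marrow was followed in mouse bone, where taking out the ovaries (ovariectomy) models the bone loss that follows estrogen loss. The members were taken by symbol as C1qa, C1qb, C1qc, Mertk, Cd163, Mrc1, Cd68 and Adgre1, which are 8 of the 25239 genes in the RNA table. Their m6A peaks were taken by gene name and number 11 of 13083. N6-methyladenosine (m6A) is a methylated form of adenosine within RNA chains, and an m6A peak is a stretch that an antibody to m6A pulls down from fragmented RNA more than the starting RNA would give. Per the labels, wild type mice had an ovariectomy or a sham operation, with 4 input and 4 immunoprecipitated (IP) libraries from ovariectomy bone and 4 input and 4 IP libraries from sham bone, 16 in all. An input library is the RNA before the pull-down. All groups share the wild type genotype and the bone tissue. Strain, age, the time after surgery and whether each library is a separate animal are not stated in the labels, so p-values may measure only technical spread. The treatment field of the 4 IP libraries titled NC names ovariectomy, against their titles, and the titles were followed.

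Macrophages are phagocytes that live in tissues and clear dying cells, old red cells and debris. In the marrow they sit at the centre of erythroblast islands, where they take up the nuclei that maturing red cells expel, and they return the iron of aged red cells to the blood. They share a myeloid origin with osteoclasts, the cells that resorb bone, and loss of estrogen is known to promote osteoclast formation. C1qa, C1qb and C1qc encode the chains of C1q, which starts the classical complement pathway and tags dying cells. Mertk is a receptor tyrosine kinase that binds dying cells through bridging ligands. Cd163 takes up haptoglobin bound to hemoglobin, Mrc1 is the mannose receptor, Cd68 is a glycoprotein of late endosomes and lysosomes, and Adgre1 encodes the adhesion receptor commonly used to stain mouse macrophages. Cd68 is also made by osteoclasts and other myeloid cells, and Mrc1 by some endothelial cells. In whole bone, fewer cells of a type and less RNA per cell cannot be told apart.

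Both tables give results of the authors' comparisons without per-library values, so a member is described by its mean over all libraries, its log2 fold change between the arms and the standard error (SE) of that fold change. Neither table states which arm is the numerator. Signs are given as deposited, positive or negative, and are not read as higher or lower after ovariectomy. A gene was called where the deposited adjusted p was under 0.05. The mean normalized counts of the authors' deposited table summed to 43717045 over its genes, 6190 genes had a mean of 0, and 15396 had an adjusted p. All bone markers were present, and the lowest mean count among 8 osteoblast and matrix genes was 482 in the authors' deposited table.

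The 250 bases before the start site are shown for C1qb and C1qc, the C1q genes with an entry in the promoter table, and for Mrc1, the member with the largest fold change in either direction. The letters are from the RefSeq promoter table on GRCm38.p6, read 5′ to 3′ on the strand of the gene. Capitals mark GAGGAA or its reverse complement TTCCTC, the core bound by PU.1, a transcription factor that drives the macrophage lineage.
C1qb, chr4:136886201-136886450, minus strand: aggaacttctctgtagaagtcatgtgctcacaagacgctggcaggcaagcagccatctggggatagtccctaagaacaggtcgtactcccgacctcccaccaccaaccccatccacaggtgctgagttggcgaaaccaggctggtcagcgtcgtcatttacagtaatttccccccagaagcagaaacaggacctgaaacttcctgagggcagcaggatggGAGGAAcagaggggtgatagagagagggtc
C1qc, chr4:136892915-136893164, minus strand: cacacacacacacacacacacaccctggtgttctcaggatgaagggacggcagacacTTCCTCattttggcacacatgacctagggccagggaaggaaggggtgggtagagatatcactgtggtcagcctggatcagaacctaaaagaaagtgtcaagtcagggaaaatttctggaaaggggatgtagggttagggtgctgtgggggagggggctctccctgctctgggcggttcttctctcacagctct
Mrc1, chr2:14229164-14229413, plus strand: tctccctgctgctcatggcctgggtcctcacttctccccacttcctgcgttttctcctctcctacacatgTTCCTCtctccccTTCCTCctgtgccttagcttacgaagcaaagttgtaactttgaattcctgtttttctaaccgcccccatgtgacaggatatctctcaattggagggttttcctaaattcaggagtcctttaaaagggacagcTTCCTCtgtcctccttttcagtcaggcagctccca
The letters GAGGAA were found on either strand in this window in 4 of the 6 members with a promoter entry, and in 23.3% of 32851 promoters in the table. Mrc1 held 3 matches, at 180, 167 and 35 bases before the start. C1qb held 1 match at 30 bases, C1qc 1 at 193 bases and Cd68 1 at 225 bases before the start. The AP-1 letters TGANTCA were in 1 of the 6 members, Cd68, which held 2, and in 6.75% of all promoters. The letters TGCTGA, part of the site bound by Maf factors, were in 1 of the 6 members, C1qb, and in 16.1% of all promoters. The AP-1 and Maf letters can overlap one another, since both hold TGA. A match describes the letters only.

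No member was called in RNA. Of the tested genes 12.2% were called in the authors' deposited table, 6.07% with a positive and 6.11% with a negative fold change, against 0 of the 8 members. The table's Wald test also gave 0 of 8 members an unadjusted p under 0.05, where 21.5% of all genes with a p in the authors' deposited table had one. Of the members, 4 were positive (the C1q genes and Adgre1) and 4 were negative (Mertk, Cd163, Mrc1 and Cd68) in the authors' deposited table. Their median log2 fold change was -0.05, beside -0.02 over all tested genes in the authors' deposited table. All 8 lay between -0.36 and 0.20 in the authors' deposited table.

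The C1q chains had almost the same fold change. In the authors' deposited table the log2 fold change was 0.04 for C1qa (SE 0.18, adjusted p = 0.912), 0.04 for C1qb (SE 0.18, adjusted p = 0.915) and 0.04 for C1qc (SE 0.18, adjusted p = 0.921). Their SD of 0.0016 was far below the SE of each, but the 3 genes were measured in the same libraries and share the errors of those libraries. The mean normalized counts in the authors' deposited table were 2982 for C1qa, 2566 for C1qb and 2417 for C1qc, which give the depth behind each value and are not compared as levels because they are not per length. The genes lie side by side on chromosome 4, in the order C1qb, C1qc and C1qa with 0 other genes between them in the GRCm38.p6 RefSeq table. The 95% interval of C1qa, from the fold change and SE of the authors' deposited table, ran from -0.31 to 0.40, and fold changes of that size cannot be told from 0 at this precision.

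Mertk, the receptor of dying cells, had a log2 fold change of -0.35 (SE 0.21, adjusted p = 0.286) at a mean of 2188 normalized counts in the authors' deposited table. Its 95% interval from the authors' deposited table was -0.76 to 0.06. Cd163, the hemoglobin scavenger, stood at -0.14 (SE 0.38, adjusted p = 0.853) at a mean of 2509 in the authors' deposited table. It was the least precise of the 8, with an interval of -0.89 to 0.60 from the authors' deposited table.

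Mrc1, the mannose receptor, was closest to the threshold. Its log2 fold change was -0.36 (SE 0.18) with an unadjusted p of 0.0506 and an adjusted p of 0.196 in the authors' deposited table, at a mean of 6114 normalized counts. The 95% interval from the authors' deposited table was -0.71 to 0.00096. Cd68, the endosomal glycoprotein, stood at -0.22 (SE 0.14, adjusted p = 0.351) at a mean of 2648 in the authors' deposited table. Adgre1, the adhesion receptor, had the highest fold change of the 8 with 0.20 (SE 0.11, adjusted p = 0.249) at a mean of 1496 in the authors' deposited table. The Adgre1 interval of -0.02 to 0.42 from the authors' deposited table overlapped those of Mrc1 and Mertk. Whether any pair of members differed could not be tested, because the values of single libraries are needed for the error they share.

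**Figure D1:**
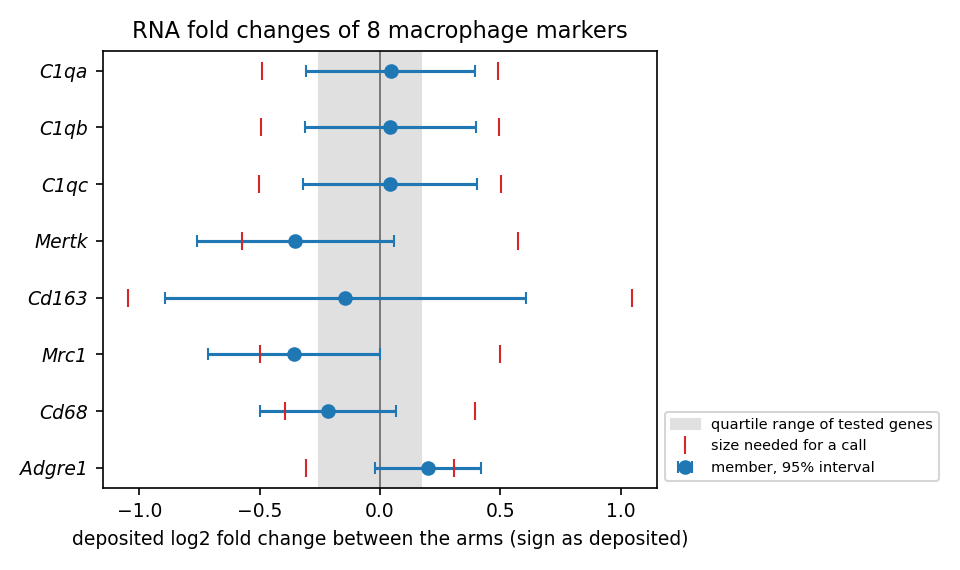
Points are the deposited log2 fold changes of the 8 members with 95% intervals from the SE, red ticks are the size a fold change would have needed for a call at that SE, and the grey band is the quartile range of all tested genes (-0.25 to 0.17). Every interval includes 0 and no point reaches its tick.

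The members differed in how precisely they were measured. The largest p that was called in the authors' deposited table was 0.00609, and at its own SE a member needed an absolute log2 fold change of 0.31 for Adgre1, 0.39 for Cd68, 0.49 for C1qa, 0.50 for Mrc1, 0.57 for Mertk and 1.05 for Cd163. Set beside the 500 tested genes nearest in mean count, the SE of Cd163 in the authors' deposited table was above 96.6% of them, where the median SE was 0.12. The SE of Mrc1 was above 88.6%, that of Mertk above 86.0% and that of C1qa above 78.8% of their own 500 nearest genes in the authors' deposited table. Adgre1 was the only member below the middle of its neighbours, above 40.2% of them in the authors' deposited table. The absolute fold changes of Mrc1 and Mertk were above 87.0% and 82.8% of their neighbours, and that of C1qa above 16.4%, in the authors' deposited table.

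**Figure D2:**
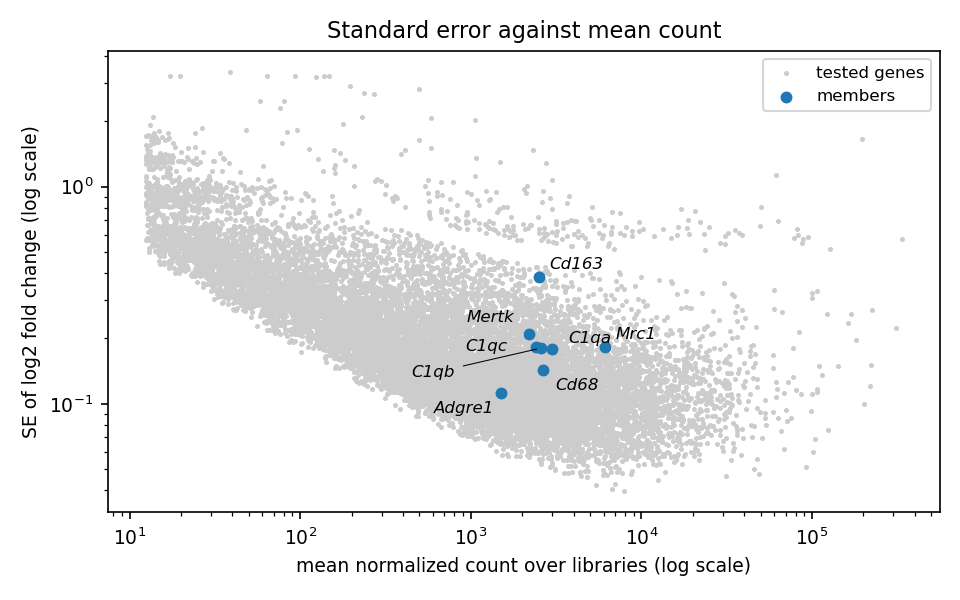
Each grey point is a tested gene, with its mean normalized count (x, log scale) against the SE of its log2 fold change (y, log scale), and the 8 members are in blue. Cd163 has an SE of 0.38 at a mean count of 2509, and Adgre1 has the lowest SE of the members, 0.11 at a mean count of 1496.

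Other genes of resident and island macrophages gave no call among those with an adjusted p. Of 16 such genes 15 were tested, 0 were called, 2 were positive and 13 negative, with a median of -0.35 in the authors' deposited table. Of these 15 genes 3 had an unadjusted p under 0.05 in the authors' deposited table. The gene left out, Clec4f, had no adjusted p at a mean of 8.92 counts in the authors' deposited table, and became a call when no filter on low counts was applied (Benjamini-Hochberg adjusted p = 1.6e-05). Hmox1, which opens the heme ring so that iron is freed, had the smallest p of the 15, with -0.64 (SE 0.30, adjusted p = 0.143) in the authors' deposited table. The genes of hemoglobin and iron recycling, the process Cd163 feeds, had 1 positive call and 0 negative calls among 14 tested in the authors' deposited table (median -0.14). The call was Blvrb, a biliverdin reductase that is also abundant in red cells, at 0.55 (SE 0.15, adjusted p = 0.0066) in the authors' deposited table. Erythroid markers had 4 positive calls and 0 negative calls of 7 in the authors' deposited table, and their part in the Blvrb value was not tested.

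Other genes of the complement cascade were called. Of 20 genes of the C1 complex and classical complement, 4 were called, all negative, in the authors' deposited table (median -0.19, or -0.27 without the C1q genes). C1s1 and C1ra encode the proteases that bind C1q to form C1. They stood at -0.76 (SE 0.23, adjusted p = 0.0165) and -0.46 (SE 0.16, adjusted p = 0.0359) in the authors' deposited table. C4b, the component that C1s cleaves, had -0.33 (SE 0.09, adjusted p = 0.0063) in the authors' deposited table. The C1q intervals from the authors' deposited table reach down to -0.32 at most, and the differences between C1q and these partners were not tested.

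Of the 2 bridging ligands of Mertk, Gas6 was called and Pros1 was not. Among 19 genes of TAM receptors (Tyro3, Axl and Mertk) and of the clearance of dying cells, 0 positive and 1 negative passed in the authors' deposited table, with 16 of 19 negative and a median of -0.31. That gene was Gas6, which bridges Mertk and Axl to phosphatidylserine on dying cells, at -0.74 (SE 0.17, adjusted p = 5.8e-04) and a mean of 10290 in the authors' deposited table. Pros1, protein S, stood at -0.08 (SE 0.08, adjusted p = 0.586) in the authors' deposited table and was chosen after its value was seen. Scavenger and lectin receptors, the class of Cd163, Cd68 and Mrc1, had 0 positive and 1 negative call of 16 in the authors' deposited table (median -0.20). Clec10a, a galactose-type lectin of macrophages and dendritic cells, was that call at -0.30 (SE 0.09, adjusted p = 0.0141) in the authors' deposited table.

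The families of 2 members held 1 called gene each, of 4 and of 3 genes, beside 12.2% of all tested genes. Shares in families this small were not tested. In the mannose receptor family of 4 genes, all negative in the authors' deposited table, Pla2r1, a receptor of secreted phospholipase A2, passed at -0.84 (SE 0.23, adjusted p = 0.0057). Of 3 adhesion receptors in the family of Adgre1, all positive in the authors' deposited table, Adgre4 passed at 0.48 (SE 0.14, adjusted p = 0.0091). Fc receptors, through which macrophages bind antibody, had 0 calls among 6 in the authors' deposited table (median 0.06). Their smallest p was that of Fcgr1, at 0.33 (SE 0.17, adjusted p = 0.190), the 1 of 6 with an unadjusted p under 0.05 in the authors' deposited table. Of 14 macrophage lineage factors 0 passed and 0 had an unadjusted p under 0.05 in the authors' deposited table (median -0.08). Irf8, a factor of monocytes and dendritic cells, had the smallest p of these with 0.20 (SE 0.10, adjusted p = 0.206) in the authors' deposited table. Of 10 tested activation markers, only Tgfb1, a growth factor of many cells, passed, with 0.41 (SE 0.09, adjusted p = 2.3e-04) in the authors' deposited table. The 9 macrophage lists, without the activation markers and without the 8 members, held 87 tested genes. Of these 2 positive and 7 negative were called in the authors' deposited table (10.3%). That total was near the background of 12.2%, made up of 6.07% positive and 6.11% negative. Called or not, 24 of the 87 were positive and 63 negative (median -0.14), beside 7187 and 8209 of all tested genes. No test was made of these counts.

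Markers of other cells that whole bone can hold spanned a wider range than the macrophage genes. Among related myeloid cells 11.1% of monocyte, 10% of osteoclast, 12.5% of dendritic cell and 0% of neutrophil genes were called. The share over all tested genes was 12.2%. Among 9 monocyte genes S100a4, a calcium-binding protein, passed at -0.54 (SE 0.16, adjusted p = 0.0122) in the authors' deposited table. Among 10 osteoclast genes Ctsk, the protease that digests bone collagen, passed at -0.72 (SE 0.20, adjusted p = 0.0052) in the authors' deposited table. Ccr7, which guides dendritic cells to lymph nodes, was the 1 call of 8 dendritic cell genes, at 0.88 (SE 0.19, adjusted p = 1.8e-04) in the authors' deposited table. The median of that list was 0.13, and the part of other cells in the Ccr7 value was not tested. Neutrophil genes had 0 calls of 8 and 0 with an unadjusted p under 0.05 in the authors' deposited table, and the smallest p was that of Ngp at -0.34 (SE 0.23, adjusted p = 0.375).

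Lists outside the myeloid cells had medians further from 0. The authors' deposited table had positive values for all 8 B cell genes, of which 7 were called, and their median was 1.02. For skeletal muscle the authors' deposited table had negative values in all 8 genes, of which 2 were called, and a median of -1.42. Endothelial genes were also negative in the authors' deposited table, all 7 of them, with 0 called, 4 at an unadjusted p under 0.05 and a median of -0.40. The smallest p among them was that of Kdr, a VEGF receptor, at -0.34 (SE 0.13, adjusted p = 0.0674) in the authors' deposited table. Mrc1, which some endothelial cells also make, lay at -0.36, close to the endothelial median. It lay as close to the medians of the other resident and island macrophage genes (-0.35) and of the osteoclast genes (-0.34). The part of any of these cells in the Mrc1 value was not tested. Of 8 osteoblast and matrix genes 3 had a positive call in the authors' deposited table. None of the markers in these lists was at 0, and their sums per arm cannot be had from means over all libraries.

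**Figure D3:**
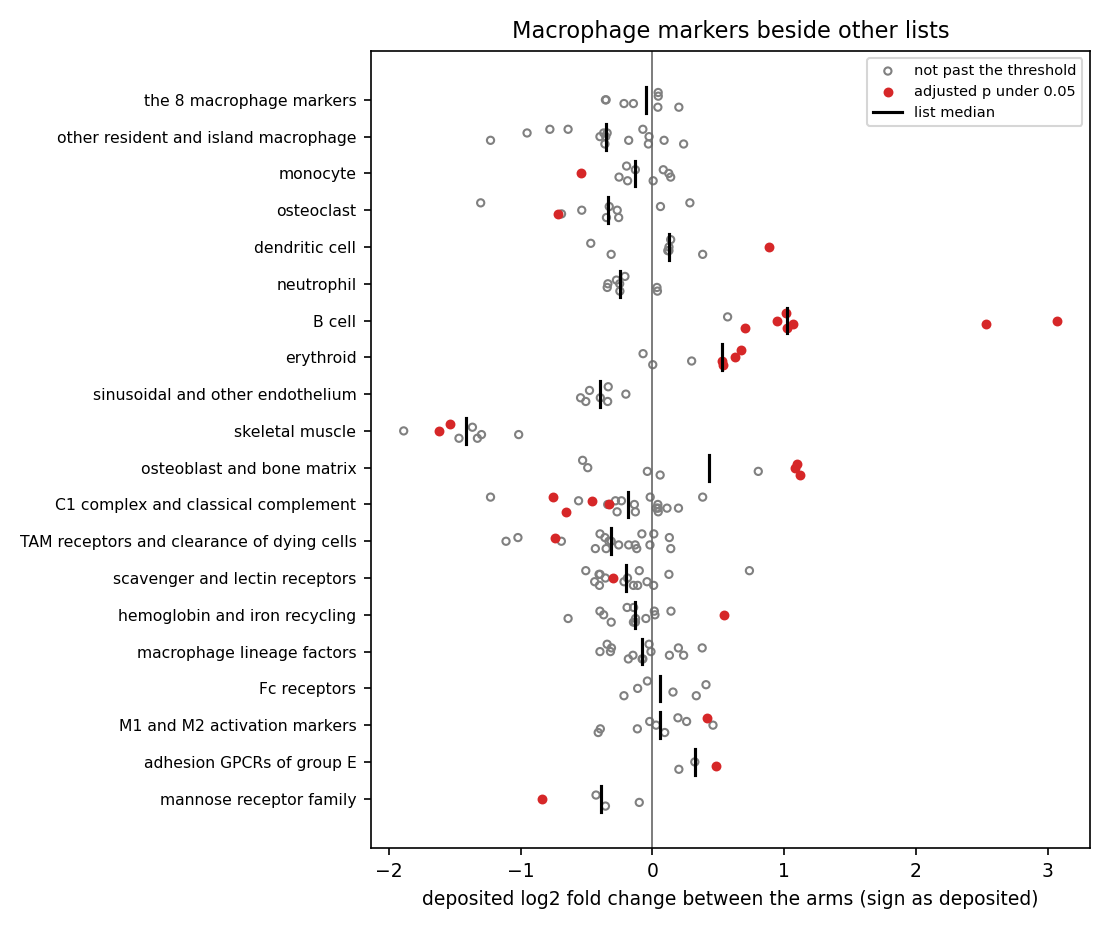
Each circle is a tested gene of a list, at its deposited log2 fold change, filled red where the adjusted p was under 0.05, and the black bar is the list's median. The 8 macrophage markers lie within -0.36 to 0.20 with no filled circle, while B cell genes lie to the right (median 1.02) and skeletal muscle genes to the left (median -1.42).

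Of the 8 members, 3 carried m6A peaks in the authors' deposited table, with 2 in Mertk, 5 in Cd163 and 4 in Mrc1, and no peak was listed for the C1q genes, Cd68 or Adgre1. Among tested genes with a mean count in the range of the members (1496 to 6114), 66.6% of 4165 had a peak in the authors' deposited table, against 37.5% of the members. The share also differed between genes on the plus and minus strands. In that range of counts 73.5% of 1699 plus-strand genes and 59.1% of 1644 minus-strand genes had a peak in the authors' deposited table. Of the 6 members whose strand the promoter table gives, the 3 on the plus strand (Mertk, Cd163 and Mrc1) had peaks. The 3 on the minus strand (C1qb, C1qc and Cd68) had 0. C1qa and Adgre1 also had 0 peaks, but their strand was not read because they have no entry in the promoter table. Either of them on the plus strand would break this split, so it cannot be stated for all 8 members. The part of the strand in the peak counts was not tested.

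The peaks of the members lay low in the range of enrichment. Their enrichment of IP over input had a median of 1.51 and a range of 1.20 to 2.10, beside a median of 1.82 and quartiles of 1.54 and 2.20 over all peaks of the authors' deposited table. Of the 11 peaks 9 lay under the median of all peaks, and 1 reached an enrichment of 2, where 37.3% of all peaks in the authors' deposited table did. Of the 11, 7 spanned at least 2 exon blocks (63.6%), against 40.1% of all peaks in the authors' deposited table. Peaks of 1 gene share its RNA and are not replicates, so no test was made of these shares. Positions are those of the peak table, with the start counted from 1. The submitters' processing notes name the rat build rn6, and 99.8% of the peaks with a known symbol lay inside that gene on the mouse build GRCm38.p6.

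Cd163 carried the most peaks and all were under the median enrichment. From the first to the fifth along chromosome 6 the enrichments were 1.65, 1.31, 1.35, 1.21 and 1.51 in the authors' deposited table. Its first peak spanned 124307181 to 124308953 in 2 blocks with 151 exonic bases, and its second began 199 bases further on as a single block of 100 bases, from 124309153 to 124309252, in the authors' deposited table. The third was a block of 101 bases (124311571 to 124311671) and the fourth and the fifth held 251 exonic bases each (124312683 to 124317493 and 124327920 to 124329629) in the authors' deposited table. The first had the lowest p against input among them (log10 p = -6.71) in the authors' deposited table.

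Mrc1 had 4 peaks on chromosome 2, with enrichments of 1.89, 1.57, 1.37 and 1.73 in the authors' deposited table. The first was a single block of 200 bases (14238214 to 14238413), and the second spanned 14279942 to 14292574 in 3 blocks, in the authors' deposited table. The third (14294887 to 14305316, 3 blocks) and the fourth (14305415 to 14306498, 2 blocks) lay 98 bases apart and shared the lowest p against input of all 11 (log10 p = -13.3) in the authors' deposited table. Mertk had the lowest and the highest enrichment of the 11. Its first peak, chromosome 2 from 128778940 to 128779870, had 1.20, and its second, a single block of 397 bases from 128801473 to 128801869, had 2.10 in the authors' deposited table. The second was the longest exonic stretch among the 11, beside a median of 151 exonic bases over all peaks in the authors' deposited table.

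Between the arms, 1 of the 11 peaks had a difference p under 0.05, where 4.92% of all peaks in the authors' deposited table did. It was the fourth peak of Mrc1, with a log2 difference in enrichment of 0.45 (p = 0.0234, FDR 0.852) in the authors' deposited table. None of the 11 had an FDR under 0.05, as did 0.0229% of all peaks (3 of 13083) in the authors' deposited table. Beside it, the third peak of Mrc1 had 0.17 (p = 0.504), and the first and second had 0.25 (p = 0.476) and -0.0092 (p = 0.964) in the authors' deposited table. Both Mertk peaks were positive, at 0.26 (p = 0.285) and 0.19 (p = 0.176) in the authors' deposited table. The 5 Cd163 peaks ran from -0.28 (p = 0.386, the third peak) to 0.28 (p = 0.594, the fifth peak) in the authors' deposited table. Of the 11 differences 7 were positive (63.6%), as were 60.6% of all peaks in the authors' deposited table. RNA fold changes of Mrc1 and Mertk were negative where most of their m6A differences were positive, but the numerator of either table is not stated, so these signs cannot be compared.

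**Figure D4:**
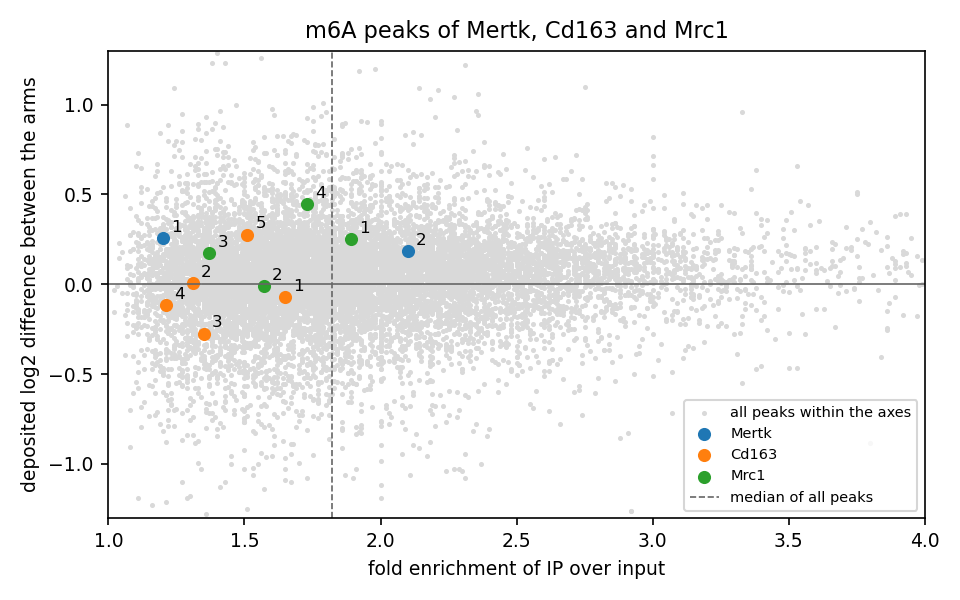
Each point is an m6A peak, with its fold enrichment of IP over input (x) against the deposited log2 difference of enrichment between the arms (y). Coloured points are the 11 peaks of Mertk, Cd163 and Mrc1, numbered along the gene, grey points all peaks within the axes, and the dashed line the median enrichment of 1.82. The fourth Mrc1 peak is the highest of the 11 at 0.45, and 9 of the 11 lie left of the dashed line.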

How the data were processed

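Library preparation was stranded, from mRNA and with molecular identifiers, per the labels' protocols. HISAT2, StringTie, DESeq and the build rn6 are named, with no role or version, per the submitters' processing notes. The peak caller and any pooling are not stated in them. Per the file headers, the authors deposited for each gene the mean of size-factor-scaled counts (a signal averaged across all libraries), then a log2 fold change with its SE, the Wald score, and raw and adjusted p-values. For each peak the authors deposited its p-value of IP over input, that p and its FDR on a log10 scale, the fold enrichment as a ratio, a log2 difference between the arms, and a log10 score for the p and FDR of that difference. Peak starts were counted from 1 by adding 1 to the deposited start, since start, block offset and block size sum to the end in every row. Recomputing the Benjamini-Hochberg adjustment over 15396 genes gave back the deposited values.

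No per-library value was at hand, so no test on counts was run here. The count model, the left-out libraries and the replicate block planned from the labels were not run. For the centrings, Wald p-values were recomputed from the shifted fold change and the deposited SE and adjusted again. For the other filters on low counts, the deposited p-values were adjusted again. Intervals are 95% normal intervals from the deposited fold change and SE. Code for adjusted p-values was tested on simulated data. Alternatives were other thresholds, other filters on low counts and other centrings of the fold changes. The members and lists were chosen with earlier results of these data known. Named genes were all 8 members and, from each of the other 19 lists, up to 4 called genes by smallest p, or the gene with the smallest p where none was called. A few of these are given only within their list's count, and 1 is not reported here. Symbols were matched exactly, and 99.2% of RNA symbols were in the GRCm38.p6 RefSeq table. Of the genes that overlap members there, Mir511 in Mrc1 was in the RNA table, with a mean of 0.618 counts. Python 3.11.15, numpy 2.4.6, pandas 2.3.3, scipy 1.17.1, statsmodels 0.14.6 and matplotlib 3.10.9 were used.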

Additional observations from a re-analysis of the deposited data

How the results depend on the processing

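The count of members called in RNA was 0 of 8 under every alternative run: adjusted p thresholds of 0.01 and 0.1, no filter on low counts, a mean count of at least 50, an unadjusted p under 0.05, and both centrings. Centring on the median of all tested genes subtracted -0.02 and centring on the 10% of genes with the highest mean counts subtracted 0.03, and neither changed the sign of a member. Among the 15396 genes with an adjusted p, calls were 882 at a threshold of 0.01 and 3957 at an unadjusted p, against 1875. Called genes in the other lists were 19 at 0.01 and 61 at an unadjusted p, against 29 of 166 tested. The positive and negative calls were 722 and 1152 when centred on these high-count genes and 1133 and 835 when centred on all tested genes, against 934 and 941 as deposited. The adjusted p of Kdr became 0.0401 when centred on the high-count genes. With no filter on low counts that of Actn3 became 0.0547, against 0.0452 as deposited, which left 1 called muscle gene, and Clec4f was called (1.6e-05). The 1 member peak with a difference p under 0.05 was not called at a p under 0.01 (0 peaks), at an FDR under 0.05 (0 peaks) or with an enrichment of at least 2 (0 peaks). Matching peaks by position gave the same 3 members, and peaks of genes with a like mean count left each enrichment on the same side of the middle. Leaving out single libraries was not run, because both tables hold comparisons over all libraries. No paired analysis was possible because the tables carry no column for a single library or replicate number. Depth per library and the spread within each arm are not in the tables, so the SE is the sole measure of precision.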

Other observations

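Of 89 genes in the 9 macrophage lists other than the members, 32 (36.0%) carried 49 m6A peaks in the authors' deposited table, with a median enrichment of 1.70. Of all tested genes 44.3% carried a peak in the authors' deposited table, and 66.6% of those with a mean count of 1496 to 6114. The list genes, 87 of them tested, were not matched to either set by mean count. Of the 49 peaks none had an FDR under 0.05. A difference p under 0.05 was found for 4 (8.16%), beside 4.92% of all peaks in the authors' deposited table. These 4 were chosen after their values were seen. Cd300lf, an inhibitory receptor that binds phosphatidylserine, had a log2 difference of -0.45 (p = 0.0098, FDR 0.684) in the authors' deposited table. Nfe2l2, the factor that switches on antioxidant genes and Hmox1, had -0.49 (p = 0.0151, FDR 0.748) in the authors' deposited table. Dock1, which helps phagocytes engulf dying cells, had 0.54 (p = 0.0245, FDR 0.865) and Cd55, an inhibitor of complement, had 0.29 (p = 0.0331, FDR 0.936) in the authors' deposited table.

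Clec4f, a lectin of liver macrophages in mice, was the 1 gene of the resident macrophage list without an adjusted p. It had a mean of 8.92 normalized counts, a fitted log2 fold change of 6.59 (SE 1.24) and an unadjusted p of 1.0e-07 in the authors' deposited table, and was chosen after its values were seen. At so low a count, and without values of single libraries, the fitted value is not read as the size of a change.

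Cebpb and Cebpa, transcription factors of myeloid cells, had the largest SE among the macrophage lineage factors. These were 0.93 and 0.67, at means of 2099 and 2029 counts, in the authors' deposited table, where the median SE of the 14 factors was 0.20. Both were chosen after their values were seen.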
